A study of Mus musculus with 12 samples.

Results

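Integrin and laminin genes were followed in mouse hearts under pressure overload, with and without the metalloprotease ADAM12. They were taken as all genes whose symbol begins with Itga or Itgb, or with Lama, Lamb or Lamc and a digit, read on a probe set that carries a single gene symbol, with the brightest probe set kept for each gene. The rule gave 37 of the 26989 genes tested. Of these, 17 were integrin alpha subunits, 8 were integrin beta subunits and 8 were laminin chains. The other 4 (Itgb1bp1, Itgb1bp2, Itgb3bp and Itgbl1) share the Itgb prefix but encode no integrin subunit. Itga1 lies on a probe set shared with Pelo and was left out, and other genes that match the rule were not analysed here.

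The hearts came from 10-week-old male C57BL/6J mice, 3 biological replicates in each of 4 groups, with 1 array per heart. Wild-type (WT) and ADAM12 knockout (KO) mice had either a sham operation or transverse aortic constriction (TAC), which narrows the aorta and raises the load on the left ventricle, and hearts were taken 2 weeks later. The labels do not name the knockout allele, and they give the tissue only as heart. Total RNA was read on Clariom D arrays, so every value is the log2 signal of a probe set, a scale on which a difference of 1 is a doubling of signal. The 12 arrays had like brightness, with median signals from 4.93 to 5.10 and background probe sets at medians from 2.96 to 3.17. The heart muscle genes Myh6 (19.24 to 19.38) and Tnnt2 (19.57 to 19.65) were bright on every array. Adam12 shares its probe set with 5830403F22Rik, and there the 6 KO arrays (4.25 to 4.40) all lay below the 6 WT arrays (4.46 to 4.80). By limma over all probe sets, the KO to WT difference there did not pass after sham (-0.19 ± 0.09, adjusted p = 0.868). It did not pass after TAC either (-0.37 ± 0.09, adjusted p = 0.163). All 12 values lay under the lowest array median, so the probe set was dim in WT too.

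Integrins are receptors that span the plasma membrane as pairs of an alpha and a beta subunit. They hold the cell to matrix proteins or to other cells and connect that grip to the actin cytoskeleton through focal adhesion proteins such as talin. Laminins are trimers of an alpha, a beta and a gamma chain, and they form the sheet of the basement membrane that surrounds each cardiomyocyte and lines each vessel. In the heart, laminins are held at the muscle cell surface by integrins that carry the beta1 subunit and by dystroglycan, while fibroblasts and leukocytes carry other integrin pairs that bind fibronectin, collagens or counter-receptors on other cells.

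The promoters of 4 genes are shown because these genes lead the account that follows. Itga5, Itgb1 and Lamb1 rose after TAC in KO hearts, and Itgb6 fell. Each sequence is the 250 bases before the RefSeq transcription start in GRCm38.p6, read 5′ to 3′ on the strand of the gene, with capitals marking motif matches. The windows lie at chr15:103366792-103367041 on the minus strand (Itga5), chr8:128685404-128685653 on the plus strand (Itgb1), chr12:31265043-31265292 on the plus strand (Lamb1) and chr2:60722604-60722853 on the minus strand (Itgb6). RefSeq lists 2 starts for Itgb6, of which the first was used.
Itga5: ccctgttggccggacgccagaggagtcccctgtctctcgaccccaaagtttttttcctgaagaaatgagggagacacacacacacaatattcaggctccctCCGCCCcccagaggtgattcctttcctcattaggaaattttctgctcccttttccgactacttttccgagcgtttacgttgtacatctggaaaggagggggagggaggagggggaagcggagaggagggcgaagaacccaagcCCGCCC
Itgb1: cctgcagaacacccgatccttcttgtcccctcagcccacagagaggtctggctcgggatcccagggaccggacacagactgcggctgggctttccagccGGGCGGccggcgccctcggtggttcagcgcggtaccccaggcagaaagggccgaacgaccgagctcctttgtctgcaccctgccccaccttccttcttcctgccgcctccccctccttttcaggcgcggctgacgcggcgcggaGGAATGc
Lamb1: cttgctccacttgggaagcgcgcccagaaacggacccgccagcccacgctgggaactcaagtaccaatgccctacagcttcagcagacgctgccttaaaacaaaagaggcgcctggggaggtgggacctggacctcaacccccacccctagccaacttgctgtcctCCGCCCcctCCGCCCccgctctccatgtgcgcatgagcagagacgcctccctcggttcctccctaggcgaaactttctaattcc
Itgb6: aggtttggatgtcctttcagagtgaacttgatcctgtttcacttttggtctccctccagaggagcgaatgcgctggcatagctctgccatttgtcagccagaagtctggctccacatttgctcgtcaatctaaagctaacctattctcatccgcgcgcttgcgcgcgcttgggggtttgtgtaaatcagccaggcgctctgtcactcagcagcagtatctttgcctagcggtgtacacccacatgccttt

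The capitals are GC boxes (GGGCGG, the binding motif of Sp factors) or a TEAD core (GGAATG), on either strand. Itga5 has GC boxes 149 and 6 bases before its start, Lamb1 has them 84 and 75 bases before, and Itgb1 has 1 at 151 bases and a TEAD core at 7 bases. The Itgb6 window holds neither motif. Of the 37 genes, 25 had a promoter in the RefSeq table. A GC box stood in 9 of these 25 windows (36%), against 32.9% of the windows of all 27025 genes in the table. The TEAD core stood in 2 of 25 (Itga10 and Itgb1) against 12.6% of all. The AP-1 motif (TGANTCA, both strands) stood in 1 (Itgax) against 6.87%, and the CArG box, the motif of serum response factor, in 1 (Lama2) against 1.4%. The motifs do not overlap one another in the printed windows, and a match only describes the letters there.

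After TAC, KO hearts had higher signal for 2 of the 4 alpha subunits that bind RGD (Itga5 and Itgav), both alpha4 and alpha9, 2 of the 3 measured collagen-binding alpha subunits (Itga2 and Itga11) and 1 of the 3 that bind laminin (Itga6). Of the 5 leukocyte alpha subunits 2 rose (Itgam and Itgax), as did 5 of the 8 beta subunits and 4 of the 8 laminin chains measured. With limma and Benjamini-Hochberg adjustment over all genes, 22 of the 37 genes (59.5%) changed between TAC and sham in KO, against 12.8% of all genes tested. Of these, 19 rose, against 7.08% of all genes, and Itgb6, Itgb1bp2 and Lamb3 fell, against 5.68%. A positive difference was found for 27 of 37 (73%), against 42.6% of all genes, and the median difference was 0.35, against -0.03 over all genes. In WT hearts 0 of 37 passed the same test, against 0.178% of all genes (0.0667% higher and 0.111% lower), and 12 (32.4%) had an unadjusted p under 0.05, against 12.3%. In WT 25 differences were positive (67.6%), against 57% of all genes, with a median of 0.10, against 0.02. These are signals of whole tissue, in which more cells of a type and more RNA per cell cannot be told apart.

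**Figure D1:**
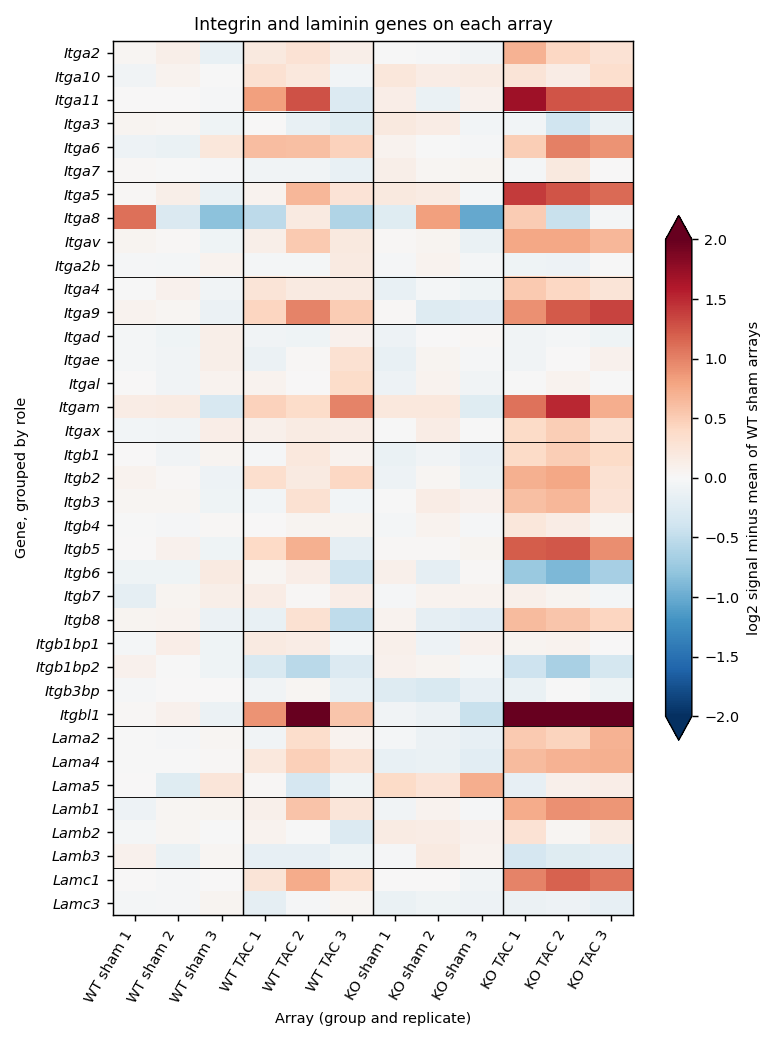
Log2 signal of each of the 37 genes (vertical) on each of the 12 arrays (horizontal), shown as the difference from the gene's mean in WT sham hearts, with colours saturating at 2 in either direction. The KO TAC arrays hold the strongest rises, led by Itgbl1, and the WT TAC arrays lie between them and sham for many of the same genes.

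**Figure D2:**
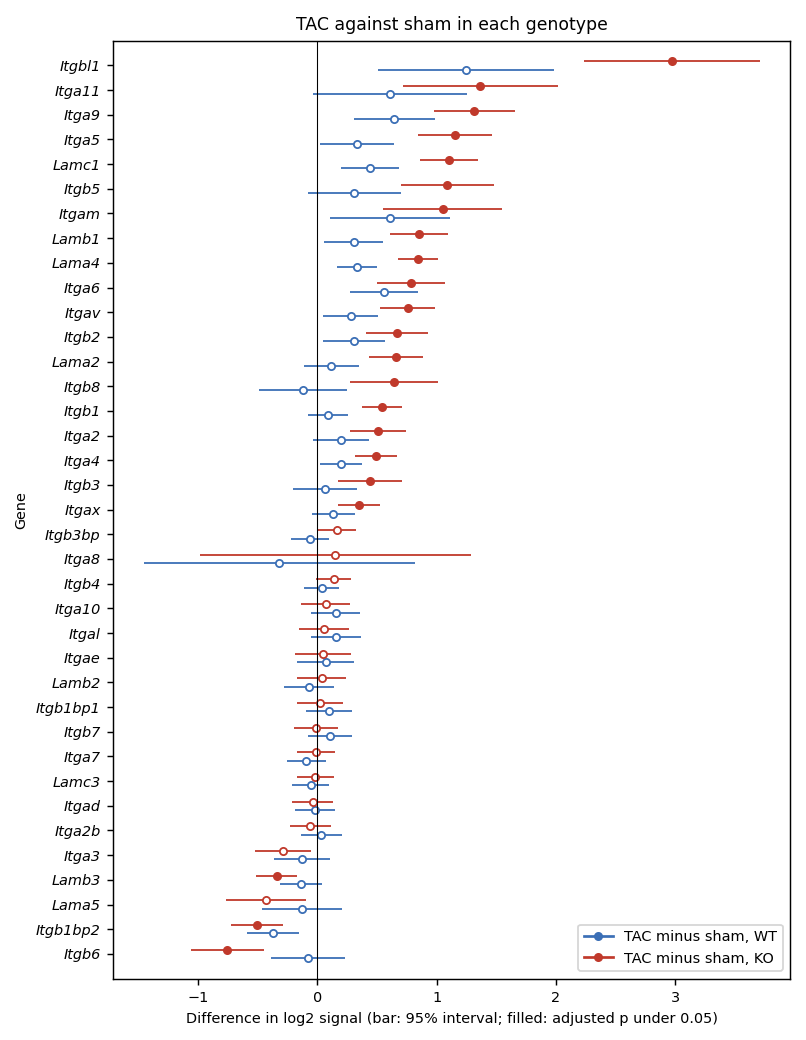
Difference between TAC and sham in log2 signal (horizontal) for each gene (vertical), in WT and in KO hearts, with bars for the 95% interval of limma. Filled points, all of them in KO hearts, passed an adjusted p of 0.05: 19 lie to the right of 0 and 3 to the left.

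Itga5 pairs with Itgb1 as the main receptor for fibronectin. It read 10.39, 10.48 and 10.23 in WT sham, 10.43, 11.03 and 10.63 in WT TAC, 10.56, 10.52 and 10.32 in KO sham and 11.76, 11.62 and 11.49 in KO TAC replicates 1 to 3, the order used for every gene that follows. All 3 KO TAC arrays lay above the other 9, and WT TAC overlapped WT sham. The TAC difference was 1.16 ± 0.14 in KO (SE, n = 3 a group, adjusted p = 0.000565) and 0.33 ± 0.14 in WT (adjusted p = 0.366). Itgav, which joins several beta subunits to bind vitronectin and latent TGF-beta, read 9.34, 9.31 and 9.21 in WT sham, 9.40, 9.81 and 9.49 in WT TAC, 9.31, 9.34 and 9.15 in KO sham and 10.05, 10.06 and 9.95 in KO TAC. It rose by 0.76 ± 0.10 in KO (adjusted p = 0.000929), and again the KO TAC arrays were the 3 highest. In WT every TAC array lay above every sham array, by 0.28 ± 0.10 on average (adjusted p = 0.302).

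The other subunits that recognise the RGD tripeptide were Itga8, a nephronectin receptor of mesenchymal cells, and Itga2b, the alpha chain of the platelet fibrinogen receptor. Neither passed in any comparison. Itga8 had the largest SD within a group of all 37 genes. It read 9.72, 8.34 and 7.81 in WT sham, 8.09, 8.80 and 8.02 in WT TAC, 8.38, 9.44 and 7.60 in KO sham and 9.13, 8.17 and 8.58 in KO TAC, and its TAC difference in KO was 0.15 ± 0.52. Its 3 highest arrays, WT sham 1, KO sham 2 and KO TAC 1, were also the 3 with the highest signal of the atrial light chain Myl7 (14.43, 15.97 and 14.19 in the same order), which ranged down to 10.81. The match ended there: WT TAC 2 and KO TAC 3, at ranks 4 and 5 for Itga8, were at ranks 9 and 10 for Myl7, and these ranks were looked at only after the values were seen. With Myl7 as a covariate the Itga8 difference became 0.64 ± 0.33 (adjusted p = 0.28). Itga2b stayed between 4.83 and 5.12 on the 12 arrays.

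The alpha4 and alpha9 subunits bind VCAM1, fibronectin, osteopontin and tenascin. Itga9 read 9.89, 9.85 and 9.70 in WT sham, 10.25, 10.81 and 10.32 in WT TAC, 9.84, 9.55 and 9.59 in KO sham and 10.73, 11.04 and 11.17 in KO TAC. TAC hearts of each genotype lay above their sham hearts with no overlap, by 1.32 ± 0.16 in KO (adjusted p = 0.000528) and 0.65 ± 0.16 in WT (adjusted p = 0.118). Itga4, carried by leukocytes among other cells, read 6.05, 6.13 and 5.98 in WT sham, 6.30, 6.23 and 6.23 in WT TAC, 5.91, 6.02 and 5.97 in KO sham and 6.58, 6.47 and 6.32 in KO TAC. Its rise of 0.49 ± 0.08 in KO passed the test (adjusted p = 0.00215), while the WT difference of 0.20 ± 0.08 did not (adjusted p = 0.335), although the WT groups did not overlap either.

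Among collagen receptors, Itga11, the subunit for fibrillar collagen on fibroblasts, read 6.34, 6.34 and 6.32 in WT sham, 7.16, 7.61 and 6.07 in WT TAC, 6.46, 6.21 and 6.43 in KO sham and 8.03, 7.60 and 7.57 in KO TAC. WT TAC replicate 3 lay below every sham array, while WT TAC replicate 2 lay among the KO TAC arrays. The difference was 1.37 ± 0.30 in KO (adjusted p = 0.0103) and 0.61 ± 0.30 in WT (adjusted p = 0.431). Without WT TAC replicate 3, Itga11 and Itgbl1 were the 2 of the 37 genes that passed in WT. In that fit 0.978% of all genes passed, against 0.178% with every array. Itga2, the collagen receptor of platelets and epithelia, rose by 0.51 ± 0.11 in KO (adjusted p = 0.00907). Itga10, a subunit known from cartilage, differed by 0.07 ± 0.09 (adjusted p = 0.732).

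The laminin-binding alpha subunits did not move together. Itga6, found on endothelium and epithelium, read 9.52, 9.48 and 9.83 in WT sham, 10.22, 10.21 and 10.07 in WT TAC, 9.68, 9.60 and 9.59 in KO sham and 10.11, 10.61 and 10.50 in KO TAC. The TAC arrays of each genotype were all above its sham arrays, by 0.78 ± 0.13 in KO (adjusted p = 0.00238) and 0.56 ± 0.13 in WT (adjusted p = 0.113). Itga7, the laminin receptor subunit of heart and skeletal muscle fibres, read 9.84, 9.81 and 9.80 in WT sham, 9.75, 9.75 and 9.67 in WT TAC, 9.93, 9.85 and 9.87 in KO sham and 9.78, 10.01 and 9.82 in KO TAC. Its difference in KO was -0.01 ± 0.07, with a 95% interval of -0.17 to 0.15, while in WT the TAC arrays were the lowest 3 of their genotype (-0.09 ± 0.07, adjusted p = 0.663). Itga3, an epithelial laminin receptor subunit, differed by -0.29 ± 0.11 in KO (adjusted p = 0.113).

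The leukocyte subunits were dim to moderate. Itgam, the alpha chain of the macrophage and neutrophil complement receptor Mac-1, read 6.91, 6.93 and 6.45 in WT sham, 7.22, 7.14 and 7.76 in WT TAC, 6.97, 6.98 and 6.52 in KO sham and 7.85, 8.28 and 7.48 in KO TAC. Each TAC group lay above its sham group, by 1.05 ± 0.23 in KO (adjusted p = 0.0107) and 0.61 ± 0.23 in WT (adjusted p = 0.302), and WT TAC replicate 3 overlapped the KO TAC range. Its partner Itgb2 rose by 0.67 ± 0.12 in KO (adjusted p = 0.00358), from 6.28 ± 0.09 in sham to 6.95 ± 0.25 after TAC. Itgax, of dendritic cells and macrophages, rose by 0.35 ± 0.08 (adjusted p = 0.0154) at a low level, since its mean lay under the median of all probe sets. Itgad, Itgae and Itgal, the last being the alpha chain of the lymphocyte receptor LFA-1, lay under that median too and differed by -0.04, 0.05 and 0.05 in KO, with adjusted p from 0.797 to 0.853. Without KO sham replicate 3, Itgam (adjusted p = 0.0515) and Itgax (0.0661) no longer passed, and Itgax was also lost without KO sham replicate 1 (0.059) or KO TAC replicate 2 (0.0732).

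Itgb1, the shared partner of the collagen, laminin and fibronectin receptors, read 15.35, 15.27 and 15.40 in WT sham, 15.33, 15.56 and 15.42 in WT TAC, 15.22, 15.27 and 15.18 in KO sham and 15.72, 15.84 and 15.73 in KO TAC. The KO TAC arrays stood above all others, with a difference of 0.54 ± 0.08 in KO (adjusted p = 0.00104), whereas WT TAC overlapped WT sham (0.09 ± 0.08, adjusted p = 0.684). Itgb5 joins Itgav to bind vitronectin. It read 10.61, 10.71 and 10.52 in WT sham, 11.02, 11.32 and 10.43 in WT TAC, 10.64, 10.64 and 10.67 in KO sham and 11.82, 11.85 and 11.55 in KO TAC. The rise in KO was 1.09 ± 0.18 (adjusted p = 0.00214), and in WT 1 TAC array lay under all 3 sham arrays (0.31 ± 0.18, adjusted p = 0.519).

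Itgb6, which pairs with Itgav on epithelia and there activates latent TGF-beta, ran opposite to the other integrin subunits that were called. It read 9.51, 9.52 and 9.78 in WT sham, 9.64, 9.74 and 9.20 in WT TAC, 9.71, 9.43 and 9.63 in KO sham and 8.86, 8.70 and 8.94 in KO TAC. All 3 KO TAC arrays lay below the other 9, and the gene fell by 0.75 ± 0.14 in KO (adjusted p = 0.0047), with -0.08 ± 0.14 in WT (adjusted p = 0.88). Itgb8, the other partner of Itgav with a known role in activating TGF-beta, rose by 0.64 ± 0.17 in KO (adjusted p = 0.0273) and differed by -0.12 ± 0.17 in WT. Itgb3, the beta chain of the vitronectin and platelet fibrinogen receptors, rose by 0.44 ± 0.12 (adjusted p = 0.0339). The call of Itgb3 was lost when any of the arrays KO sham 1, 2 or 3 or KO TAC 1 or 2 was left out (adjusted p = 0.0584 to 0.137), and that of Itgb8 without KO sham 2 or 3 or KO TAC 1 or 2 (0.0825 to 0.102). Itgb4, of the epithelial hemidesmosome, and Itgb7, of gut-homing lymphocytes, differed by 0.14 and -0.01 in KO and did not pass.

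Of the 4 genes with the Itgb prefix that are no subunits, Itgbl1 had the largest difference of all 37. It encodes a secreted protein with repeats like those of integrin beta chains. It read 8.20, 8.27 and 8.06 in WT sham, 9.08, 10.47 and 8.73 in WT TAC, 8.10, 8.06 and 7.73 in KO sham and 10.99, 11.07 and 10.74 in KO TAC. TAC arrays lay above sham arrays in each genotype, by 2.97 ± 0.34 in KO (adjusted p = 0.000446), a 7.84-fold rise, and by 1.25 ± 0.34 in WT (adjusted p = 0.158). Itgb1bp2 encodes melusin, a muscle protein that binds the beta1 tail and is known for a protective role under pressure overload. It read 12.75, 12.66 and 12.58 in WT sham, 12.36, 12.12 and 12.39 in WT TAC, 12.76, 12.71 and 12.62 in KO sham and 12.25, 12.01 and 12.31 in KO TAC. TAC arrays lay below sham arrays with no overlap in each genotype, and the gene fell by 0.51 ± 0.10 in KO (adjusted p = 0.00591), with -0.37 ± 0.10 in WT (adjusted p = 0.152). Itgb1bp1, a small protein that binds the same tail, and Itgb3bp, a centromere protein, differed by 0.02 and 0.16 in KO and did not pass.

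**Figure D3:**
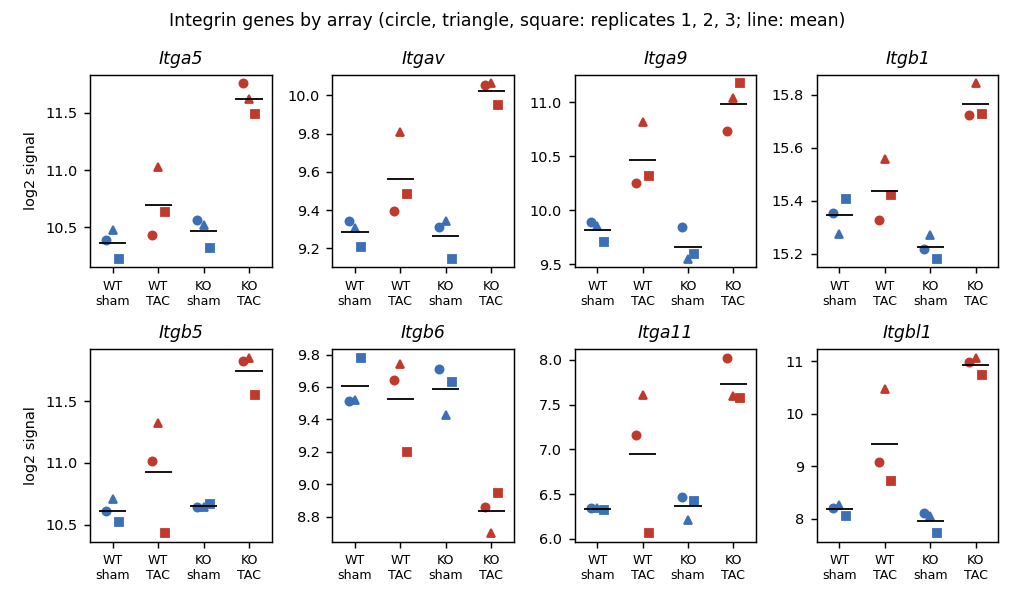
Log2 signal (vertical) of 7 integrin genes and Itgbl1 by group (horizontal), with 1 point per array, symbols for replicates 1 to 3 and a line at the group mean; each panel has its own axis, which does not start at 0. The KO TAC arrays are the 3 highest for Itga5, Itgav, Itgb1, Itgb5 and Itgbl1 and the 3 lowest for Itgb6, while WT TAC arrays spread widely for Itga11 and Itgbl1.

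Among laminin alpha chains, Lama2 is the main chain around muscle fibres. It read 12.35, 12.34 and 12.40 in WT sham, 12.30, 12.71 and 12.44 in WT TAC, 12.33, 12.24 and 12.20 in KO sham and 12.89, 12.81 and 13.06 in KO TAC. It rose by 0.66 ± 0.10 in KO (adjusted p = 0.00176), with the 3 KO TAC arrays highest, and WT TAC overlapped WT sham (0.12 ± 0.10, adjusted p = 0.701). Lama4, a chain of vessel basement membranes, read 10.93, 10.93 and 10.96 in WT sham, 11.15, 11.42 and 11.24 in WT TAC, 10.79, 10.81 and 10.73 in KO sham and 11.57, 11.64 and 11.65 in KO TAC. Its groups fell in a strict order, with KO sham below WT sham, WT sham below WT TAC and WT TAC below KO TAC, and no array of one group crossed into the next. The TAC difference was 0.84 ± 0.08 in KO (adjusted p = 0.000389) and 0.33 ± 0.08 in WT (adjusted p = 0.108), the latter being the smallest adjusted p of the 37 genes in WT.

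Lama5, a chain of vessels and epithelia, took the other direction. It read 8.71, 8.46 and 8.95 in WT sham, 8.73, 8.37 and 8.63 in WT TAC, 9.10, 8.98 and 9.43 in KO sham and 8.55, 8.82 and 8.84 in KO TAC. The KO TAC arrays lay below the KO sham arrays, by a difference of -0.43 ± 0.15 that did not pass (adjusted p = 0.0937), although it did with the replicate number as a block (adjusted p = 0.0408) and with Myl7 as a covariate (-0.54, adjusted p = 0.0281). KO sham was the highest group, and the KO TAC arrays overlapped both WT groups.

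Lamb1 and Lamc1 form laminins with either of the chains that rose. Lamb1 read 9.82, 9.96 and 9.98 in WT sham, 10.02, 10.49 and 10.16 in WT TAC, 9.85, 10.00 and 9.91 in KO sham and 10.66, 10.83 and 10.80 in KO TAC. Lamc1, the gamma chain of most laminins, read 12.41, 12.38 and 12.41 in WT sham, 12.65, 13.14 and 12.73 in WT TAC, 12.40, 12.40 and 12.33 in KO sham and 13.39, 13.58 and 13.47 in KO TAC. For each gene WT TAC arrays lay between the sham arrays and the KO TAC arrays without overlap. In KO, Lamb1 rose by 0.85 ± 0.11 (adjusted p = 0.000712) and Lamc1 by 1.10 ± 0.11 (adjusted p = 0.000389), and in WT the differences were 0.30 ± 0.11 (adjusted p = 0.29) and 0.44 ± 0.11 (adjusted p = 0.134).

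Lamb2, the beta chain that takes the place of Lamb1 in mature muscle and vessels, did not follow Lamb1. It read 12.15, 12.23 and 12.18 in WT sham, 12.26, 12.18 and 11.91 in WT TAC, 12.35, 12.34 and 12.27 in KO sham and 12.48, 12.23 and 12.36 in KO TAC. TAC and sham arrays overlapped in each genotype, and the difference was 0.03 ± 0.10 in KO with a 95% interval of -0.17 to 0.24. Lamb3, a chain of epidermal laminin read on a dim probe set (4.93 to 5.44), fell by 0.34 ± 0.08 in KO (adjusted p = 0.0153), with -0.14 ± 0.08 in WT. Without KO sham 2 or 3 or KO TAC 1 the fall of Lamb3 no longer passed (adjusted p = 0.0519 to 0.0617). Lamc3 lay between 4.86 and 5.10 on the 12 arrays and differed by -0.02 ± 0.07 in KO.

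**Figure D4:**
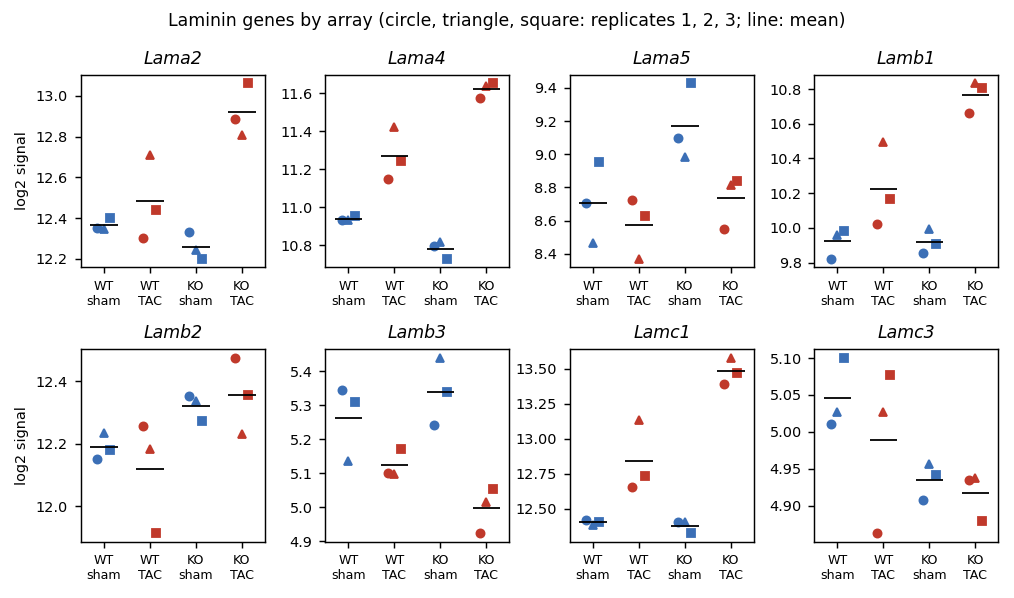
Log2 signal (vertical) of the 8 laminin chains by group (horizontal), with 1 point per array, symbols for replicates 1 to 3 and a line at the group mean; each panel has its own axis, which does not start at 0. Lama2, Lama4, Lamb1 and Lamc1 are highest in the 3 KO TAC arrays, Lama5 is highest in KO sham, and Lamb2 and Lamc3 show overlapping TAC and sham arrays in KO.

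WT hearts gave differences of the same sign for most of the genes called in KO, as they did over the whole array. Of the 19 genes that rose in KO, 18 had a positive difference in WT (94.7%), with Itgb8 the exception, against 94.6% of the 1910 genes that rose in KO overall. An unadjusted p under 0.05 in WT was found for 11 of the 19 (57.9%), against 42.1% of the 1910. The 3 genes that fell in KO had negative differences in WT, as did 91.5% of all genes that fell in KO. These genes were picked for their KO difference. In the interaction test 0 of the 37 passed, as did 0% of all genes, which does not show that the sizes were equal. Over all 37 genes, 12 had WT TAC arrays that did not overlap WT sham, against 16.1% of all genes: 10 were higher after TAC (9.03% of all genes), and Itga7 and Itgb1bp2 were lower (7.07%). In KO this count was 24, against 32.3%, with 20 higher (15.4%) and 4 lower (16.9%). Over the 19 genes the median SD within a group was 0.218 in WT TAC, 0.134 in KO TAC, 0.0911 in WT sham and 0.0765 in KO sham. WT TAC replicate 2 was the highest WT TAC array for 15 of the 19.

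The direct comparison of genotypes after TAC uses the same KO TAC arrays as the TAC comparison in KO, so its values stand beside those and are no independent support. No gene of the 37 passed (0.0111% of all genes did), and 19 (51.4%) had an unadjusted p under 0.05, against 14.6% of all genes. Of the differences 25 were positive, against 38.3% of all genes, with a median of 0.24, against -0.04. In 16 genes the KO TAC and WT TAC arrays did not overlap, against 19.2% of all genes: 14 were higher in KO (7.91% of all genes), and Itgb6 and Lamb3 were lower (11.3%). The smallest adjusted p belonged to Itga5 (0.93 ± 0.14, adjusted p = 0.0592) and Lamc1 (0.64 ± 0.11, adjusted p = 0.0592), then to Itgb6 (-0.69 ± 0.14, adjusted p = 0.063) and Lamb1 (0.54 ± 0.11, adjusted p = 0.063). Itgbl1 differed most (1.51 ± 0.34, adjusted p = 0.0709). The count of 0 held with quantile normalization, with all probe sets, with the compared groups alone and with Myl7 as a covariate. It did not hold under several other alternatives. Without WT TAC replicate 2, 13 genes passed, all higher in KO, where 2.87% of all genes passed. That array was the highest WT TAC array for 15 of the 19 genes that rose in KO. Leaving out any other single array gave 0 or 1. Without dim genes 10 of the 31 genes tested passed (9 higher, and Itgb6 lower), where 3.44% of all genes passed.

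After the sham operation 0 of 37 genes differed between KO and WT by limma, as did 0% of all genes. At an unadjusted p under 0.05 there were 2, against 5.54% of all genes. They were Itgb3bp (-0.24 ± 0.07, adjusted p = 0.891) and Lama5 (0.46 ± 0.15, adjusted p = 0.891). Itgb3bp read 5.91, 5.94 and 5.94 in WT sham and 5.67, 5.63 and 5.77 in KO sham. Lama4 came next (-0.16 ± 0.08, adjusted p = 0.898). In 9 genes the sham groups did not overlap, against 12.3% of all genes: Itga7, Itga10, Lama5 and Lamb2 were higher in KO (6.43% of all genes), and Itgb1, Itgb3bp, Lama2, Lama4 and Lamc3 were lower (5.9%). Positive differences numbered 18, against 51.9% of all genes. The median difference over the 37 genes was close to 0 (-0.004, against 0.005 over all genes).

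**Figure D5:**
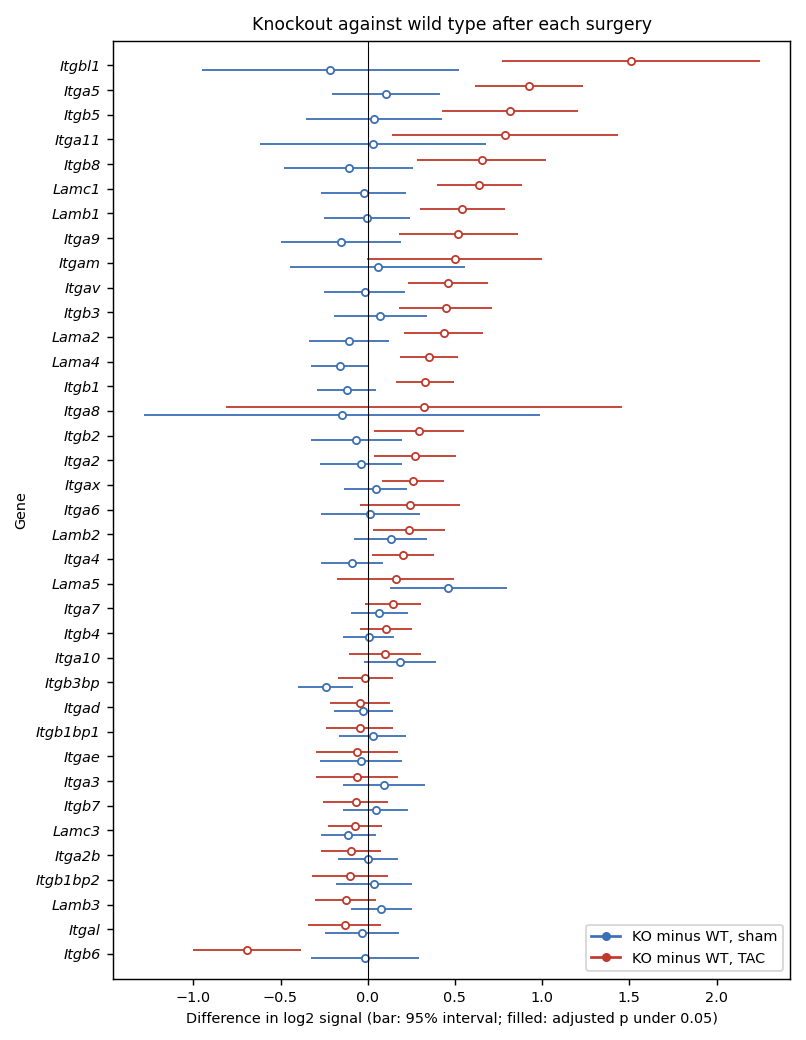
Difference between KO and WT in log2 signal (horizontal) for each gene (vertical), after sham and after TAC, with bars for the 95% interval of limma. No point is filled, since none passed an adjusted p of 0.05; after TAC most intervals of the upper genes lie right of 0 and that of Itgb6 lies left, while after sham nearly all span 0.

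The interaction asks whether the TAC difference itself was larger in KO than in WT, and it uses all 4 groups. By limma 0 of 37 genes passed, as did 0% of all genes. An unadjusted p under 0.05 was found for 14 (37.8%), against 11% of all genes, and 25 of 37 differences were positive, against 41.2%. The 4 with the smallest p were Lama4 (0.51 ± 0.11), Lamc1 (0.66 ± 0.16), Itgb1 (0.45 ± 0.11) and Itga5 (0.82 ± 0.20), each at adjusted p = 0.259. Itgbl1 differed by 1.72 ± 0.48 and Itgb6 by -0.68 ± 0.20. Without WT TAC replicate 2, 6 genes passed (Itga5, Itgb8, Itgbl1, Lama4, Lamb1 and Lamc1), where 0.559% of all genes passed. Every other alternative gave 0.

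Genes that work with integrins and laminins also moved after TAC in KO hearts. Their lists were chosen with earlier results of these data known, so the counts are no independent support. Inside the cell, 12 of 25 focal adhesion genes rose and Tns1 fell, where 7.08% of all genes rose and 5.68% fell. The 25 leave out Itgb1bp1 and Itgb1bp2, which are counted among the integrin and laminin genes. Counts for each list cover measured genes only, so Lims2, Fermt3 and Ptk2 are missing here. The largest rises were those of the actin crosslinkers Actn1 (1.497 ± 0.23, adjusted p = 0.00164) and Flna (1.10 ± 0.23, adjusted p = 0.008), and the smallest p were those of the talin Tln1 (0.72 ± 0.08, adjusted p = 0.000446), the alpha-actinin Actn4 (0.90 ± 0.12, adjusted p = 0.000712), Parva, a partner of integrin-linked kinase (0.66 ± 0.09, adjusted p = 0.000729), and the tensin Tns3 (1.05 ± 0.14, adjusted p = 0.000818). The median difference of the 25 was 0.34. In the basement membrane, 14 of 23 partners of laminin rose and 0 fell, with the collagen IV chains Col4a1 (2.01 ± 0.20, adjusted p = 0.000389) and Col4a2 (2.04 ± 0.19, adjusted p = 0.000389), the collagen-binding protein Sparc (1.68 ± 0.17, adjusted p = 0.000389) and the laminin-binding Nid2 (1.07 ± 0.12, adjusted p = 0.000446) among them. Of 19 matrix ligands of integrins, 13 rose and 0 fell. Tenascin C (Tnc) differed by 3.00 ± 0.27 (adjusted p = 0.000389), the collagen Col3a1 by 3.81 ± 0.38 (adjusted p = 0.000389), fibronectin (Fn1) by 4.07 ± 0.46 (adjusted p = 0.000446) and periostin (Postn) by 4.57 ± 0.45 (adjusted p = 0.000389). Of 12 other laminin receptors and dystroglycan complex genes, the syndecan Sdc2 rose (0.80 ± 0.13, adjusted p = 0.00254) and the sarcoglycan Sgca fell (-0.998 ± 0.16, adjusted p = 0.00211). In the other 4 comparisons 0 genes of any of these 4 lists passed by limma.

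Markers of other cells moved in the same comparison, where 7.08% of all genes rose and 5.68% fell. These lists too were chosen with earlier results of these data known. All 5 macrophage and monocyte markers measured rose after TAC in KO, and their summed signal was 13.26 to 13.57 in KO sham and 14.17 to 15.10 in KO TAC (log2), against 13.24 to 13.58 in WT sham and 13.89 to 14.11 in WT TAC. Of 7 fibroblast markers, 5 rose, with summed signal at 16.95 to 17.13 in KO sham and 17.89 to 18.19 in KO TAC, against 17.04 to 17.24 in WT sham and 16.89 to 17.82 in WT TAC. Dcn and Gsn did not pass, and every KO TAC array of Gsn lay below KO sham (-0.37 ± 0.18, adjusted p = 0.232 by limma). Bright genes weigh most in the sum, and Postn went from a mean of 11.88 to 16.46 in KO. Postn and Col1a1 are also counted among the matrix ligands above. Of 7 cardiomyocyte markers, 4 fell, while Myh6 (-0.09), Tnnt2 (-0.04) and Mb (0.002) did not pass. Of 6 endothelial markers 1 rose (Pecam1), as did 1 of 5 neutrophil markers and 1 of 3 of smooth muscle and pericytes. By limma 0 of 4 lymphocyte and 0 of 4 platelet markers passed. The measured markers of atrial muscle, Schwann cells, epicardium, adipocytes and erythrocytes also gave 0. The part of these shifts in the integrin and laminin values was not tested.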

How the data were processed

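Total RNA (250 ng, biotin labelled) from 12 hearts was read on Clariom D arrays. The deposited values are log2 signals, a scale settled from the values (1.27 to 19.93). Per the submitters' processing notes, the authors used Affymetrix Expression Console; its version, normalization and summarization are not given in the sources used here. Controls (6732 probe sets) were dropped. Among the remaining 58795, 27268 carried 1 symbol, 1932 several and 29595 none, which left 26989 genes. The groups were compared with limma 3.58.1 (R 4.3.3), with 1 mean per group over 12 arrays, tests 2-sided and p-values adjusted by Benjamini-Hochberg across the 26989 genes. Calls needed an adjusted p below 0.05. Differences carry limma standard errors, pooled over all 4 groups, and levels carry SDs. No filter on dim genes was applied, and the number of arrays limits the precision. The members, gene lists and naming rule were chosen with earlier results of these data known. By the naming rule, per-array values were given for up to 12 called genes with the largest TAC difference, up to 4 called genes with the smallest p in each genotype comparison and the interaction (called meaning in any comparison), and a set chosen by function (Itgb1, Itga5, Itga7, Itgb6, Itga11, Lama2, Lamb1, Lamb2, Lamc1, Itgb1bp2), with up to 4 genes named per list. Per-array values of Itga8, Lama5 and Itgb3bp were added after they were seen. The focal adhesion list went beyond the limit of 4: Actn1 and Flna were also named for their large rises, and Tns1 for its fall. Alternatives were quantile normalization, a filter on dim genes, all probe sets, trended and robust variance, the compared groups alone, a replicate block, Myl7 as a covariate, and each array left out. Replicate numbers in the labels were checked for pairing from deviations from group means over all genes. In KO, sham and TAC arrays of the same number correlated at 0.25, 0.14 and 0.17, all over 0.1, while in no other comparison were all 3 pairs over 0.1. By this cutoff the numbers were taken as a possible pairing of the KO arrays. The labels state no pairing, and arrays of different numbers reached 0.20, so the correlations do not show one. RefSeq promoters came from a GRCm38.p6 table.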

Additional observations from a re-analysis of the deposited data

How the results depend on the processing

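For TAC in KO the count of called genes stayed between 21 and 23 under the 7 alternatives other than leaving out an array. Without dim genes it was 21 of the 31 genes tested, which left out Itgax, where 26.5% of all genes passed. Elsewhere among the 7, all 37 were tested, and 6.46% to 14.3% of all genes or probe sets passed. With 1 array left out the count was 17 to 22 (7.77% to 13.7% of all genes), the lowest without KO sham replicate 3 (8.17%). Of the 22 genes, 17 passed in all 12 of those fits; Itgam, Itgax, Itgb3, Itgb8 and Lamb3 did not. Itgb3 was also lost with all probe sets tested and with the KO groups alone. Lama5 passed with the replicate block and with Myl7 as a covariate. For KO against WT after TAC, 0 passed as reported. Without dim genes 10 of 31 passed (3.44% of all genes), and with the replicate block 7 of 37 (2.13%). With trended and robust variance 1 passed (Itga5, 0.111% of all genes), and 0 to 13 did with 1 array left out (0% to 2.87%). The count stayed at 0 under the remaining alternatives. For TAC in WT leaving out 1 array gave 0 to 2 (0% to 0.978% of all genes), and for the interaction 0 to 6 (0% to 0.559%). Fewer genes were tested without dim genes, but the cause of that shift, like that of the others, was not tested. After sham, 0 passed under every alternative, and at most 0.00371% of all genes did. No difference of a named gene that was called changed sign under an alternative. Quantile normalization moved the median of all genes by less than 0.1. The fit on compared groups alone has no counterpart for the interaction. Same-numbered arrays correlated in their deviations from -0.07 to 0.31 over all comparisons (median 0.12, 18 pairs), and arrays of different numbers from -0.27 to 0.20 (median -0.06, 36 pairs). In KO, where every pair passed 0.1, the block changed the call of Lama5 alone. The block fit spanned all 4 groups, and no fit with a block on the KO arrays alone is reported. The main KO tests do not use the pairing. Outside KO not every pair passed 0.1, so the numbers were not taken to pair those arrays; with the block, calls over all genes went from 48 to 266 for TAC in WT and from 3 to 575 for KO against WT after TAC. Adjusted p-values here rest on 3 arrays a group, and 6 of the 37 genes (Itga2b, Itgad, Itgae, Itgal, Itgax and Lamc3) had a mean signal under the median of all probe sets.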

Other observations

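A pair of probe sets fell outside the rule. The probe set shared by Itga1, a collagen-binding subunit, and Pelo differed between TAC and sham by 0.20 ± 0.13 in WT (adjusted p = 0.639, limma over all probe sets) and by 0.30 ± 0.13 in KO (adjusted p = 0.239). The dimmer probe set of Itgb1bp1 differed by -0.35 between TAC and sham in WT (adjusted p = 0.477) and by -0.50 between KO and WT after sham (adjusted p = 0.825), where the brighter one gave 0.10 and 0.03.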
